A study of Mus musculus with 2 samples.

Results

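Cycling T cells of AT3 mammary tumors were T cells that held transcripts of proteins made late in the cell cycle. A cell was a member when it had 500 to 7500 detected genes, at most 15% mitochondrial UMIs (unique molecular identifiers, each standing for 1 captured transcript), at least 2 UMIs of the CD3 chain genes Cd3d, Cd3e and Cd3g together, fewer than 10 UMIs of the complement genes C1qa, C1qb and C1qc together, and at least 3 UMIs of Mki67 and Top2a together. Mki67 encodes the proliferation antigen Ki-67 and Top2a the topoisomerase that untangles replicated chromosomes. The members were therefore chosen on measured values, and the levels of these genes are a description. The rule found 273 cycling T cells, 129 in the Pgd fl/fl library and 144 in the Pgd fl/fl LysMCre library, of 6742 barcodes in all, 6363 kept cells and 2978 T cells. The other 2705 T cells are called other T cells below.

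The study compared leukocytes from tumors of mice that lack or keep 6-phosphogluconate dehydrogenase (6PGD, gene Pgd) in myeloid cells. Both groups carried floxed Pgd. The group labelled 6PGDKO (Pgd fl/fl LysMCre) also carried Cre recombinase at the Lyz2 locus, which is active in monocytes, macrophages and neutrophils, whereas the group labelled WT (Pgd fl/fl) carried no Cre. Female mice aged 6 to 12 weeks received 500000 AT3 cells, a line from a mammary tumor of a transgenic mouse, and tumors were taken on day 30. Each library was 1 pool of 10 mice, sorted as live CD45+ cells, and 1 protocol sentence also gives a CD11b+ gate, although T and B cells were abundant in both libraries. The paper describes Feature Barcode tags on the cells and states that sorted cells of both genotypes were pooled. A library here means the deposited barcodes of 1 genotype, which may have been split by tag from a shared pool. With 1 library a genotype there is no replicate of mice, so no genotype difference was tested, and genotype and preparation cannot be told apart.

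T cells leave rest after antigen and costimulation, grow, copy their DNA in S phase and divide in M phase. Genes for DNA copying are switched on at the G1/S transition by the E2F factors, and genes for spindle, chromosome separation and cytokinesis follow in G2 and M through CCAAT boxes and the CHR (cell cycle genes homology region) element. In tumors, dividing T cells include CD8 T cells, which kill target cells, and Foxp3+ regulatory T cells, which restrain them.

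The libraries held 27245625 and 28827045 UMIs in all, of which cycling T cells held 1696509 and 2191755. A cycling T cell had a median of 11414 UMIs (2054 to 45030) and 2937 genes in Pgd fl/fl, and 13166 UMIs (2940 to 50892) and 3152 genes in LysMCre. Other T cells had medians of 4924.5 and 5404 UMIs, so members were 2.32 and 2.44 times as deep, while cycling C1q macrophages (10 or more C1q UMIs, same Mki67 and Top2a limit) were 1.42 and 1.48 times as deep as other C1q macrophages. No barcode was shared between the libraries (0 shared), which a split of a shared pool by tag would give by itself. The oligo tag of the other genotype made up a median of 8.81% and 8.60% of the tag counts of cycling T cells, and more than 20% in 15 of 129 and 1 of 144 of them. In other T cells the medians were 14.3% and 9.37%, and 466 of 1658 and 43 of 1047 held more than 20%, and whether these are mixed cells was not tested. As a check of the deletion, Pgd was detected in 60.0% of other C1q macrophages in Pgd fl/fl and 21.7% in LysMCre, and Lyz2 in 97.2% and 11.7%. In cycling T cells Pgd was detected in 33.3% and 34.7%, so the T cells did not share the lower Pgd of the macrophages.

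The values that chose the members were spread widely. Cycling T cells held 3 to 56 UMIs of Mki67 and Top2a (median 10) in Pgd fl/fl and 3 to 62 (median 12.5) in LysMCre. CD3 chain UMIs ranged from 2 to 101 (median 23) and from 2 to 96 (median 25). Mki67 was at 0 in 14 and 8 members and Top2a in 9 and 5, so most members held both. C1q UMIs were at 0 in 80 and 82 members and reached 9 and 8.

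Below the limit of 3 UMIs the other cycle genes were low. In T cells with 0 UMIs of Mki67 and Top2a, the UMIs of all other cycle genes on the lists made up a median of 16.5 per 10000 in Pgd fl/fl and 18.4 in LysMCre. Just outside the limit, 50 and 49 T cells with 2 UMIs had medians of 28.9 and 21.1 per 10000. Just inside it, 25 and 14 T cells with 3 UMIs had medians of 47.0 and 48.9, and the 65 and 86 cells with 10 or more had 157 and 143. Members near the limit were thus the lowest in the rest of the cycle program.

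**Figure D1:**
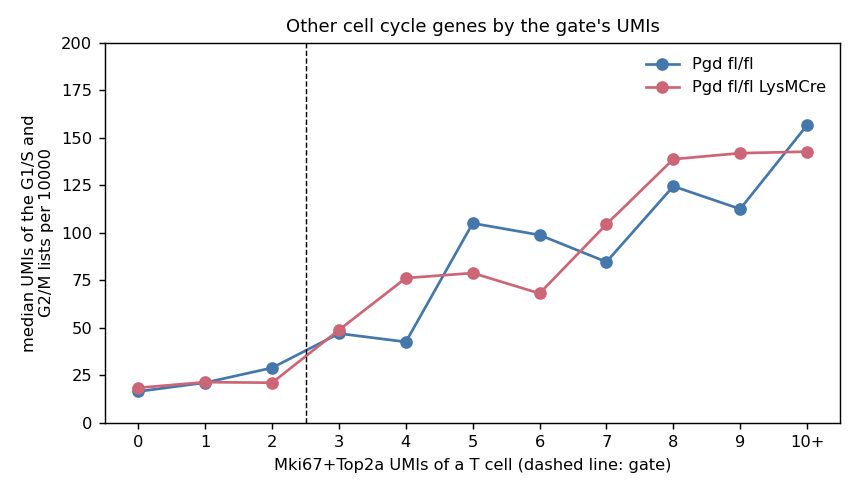
Median UMIs of the other cell cycle genes per 10000 UMIs (y axis) in T cells grouped by their Mki67 plus Top2a UMIs (x axis), in each library. The medians are 16.5 and 18.4 at 0 UMIs and 157 and 143 at 10 or more, and go from 28.9 and 21.1 at 2 UMIs to 47.0 and 48.9 at 3. They do not rise at every step, and some groups hold few cells. In Pgd fl/fl the median is 42.6 at 4 UMIs (10 cells), and in LysMCre it goes from 78.8 at 5 UMIs (7 cells) to 68.1 at 6 (6 cells).

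The identity of the members was checked on genes outside the rule, beside other T cells and B cells. B cells had at least 2 UMIs of Cd79a and Cd79b together, fewer than 2 CD3 chain UMIs and fewer than 10 C1q UMIs. They were thus chosen to lack CD3 transcripts, but not to lack cycle transcripts. Of the B cells, 9 of 546 and 1 of 37 passed the same Mki67 and Top2a limit. Pclaf, a clamp-associated factor of replicating DNA, was detected in 78.3% and 87.5% of cycling T cells, 2.65% and 4.39% of other T cells and 2.20% and 2.70% of B cells (median depth 3361 and 3091 UMIs). Stmn1, which destabilises microtubules, was detected in 86.8% and 94.4% of cycling T cells, 11.6% and 17.9% of other T cells and 7.51% and 16.2% of B cells. Trac, the constant part of the T cell receptor alpha chain, was detected in 93.8% and 97.2% of members. It was detected in 87.4% and 88.7% of other T cells and in 3.11% and 5.41% of B cells. T cells and B cells were split on CD3 chain UMIs, so the contrast in Trac is partly built in, as is that in cycle genes. Within these limits and the difference in depth, the label of cycling T cells held in both libraries.

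Most members also held a UMI of the markers of macrophages and monocytes (80.6% and 79.9%) and of B cells (66.7% and 53.5%). Marker UMIs of macrophages and monocytes summed to 2.09 and 3.03 per 10000 in cycling T cells against 366 and 290 in C1q macrophages, and those of B cells to 3.45 and 2.02 against 167 and 79.6 in B cells. These levels were close to those of other T cells (3.17 and 4.41 for macrophages and monocytes, 3.97 and 2.12 for B cells). The endothelial genes Cdh5 and Vwf, the fibroblast genes Col1a1 and Dcn and the mast cell gene Fcer1a were at 0 in members of both libraries. Other genes of these marker lists were detected. Members with a UMI of the whole list were 13.2% and 11.8% for endothelial, 1.55% and 1.39% for fibroblast and 17.1% and 25.7% for mast cell markers. At least 10 UMIs of the markers of 1 of 9 other cell types were found in 21 of 129 members (16.3%) and 27 of 144 (18.8%), against 5.85% and 9.26% of other T cells. These members are called marker carriers below, and no doublet caller was run, so cells captured in pairs were not removed.

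A larger share of T cells was cycling in LysMCre than in Pgd fl/fl. The share was 7.22% (95% Clopper-Pearson interval 6.06 to 8.52) in Pgd fl/fl and 12.1% (10.3 to 14.1) in LysMCre. All intervals here cover counting error only, not the spread between mice. When each T cell was thinned to 3000 UMIs, which removes the difference in depth and left out 236 and 163 shallower T cells, the shares were 4.06% (3.14 to 5.17) and 6.81% (5.35 to 8.53). The libraries kept their order, and their intervals stayed apart. Without T cells over 20% of the other tag, the shares were 8.73% and 12.5%. C1q macrophages did not show this order, with 9.65% (7.44 to 12.2) and 8.05% (6.00 to 10.5) cycling. T cells as a whole were a smaller share of kept cells in LysMCre (42.6% against 50.1%).

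The higher share was seen in CD8 and CD4 T cells, with intervals apart in CD8 T cells only, and not in regulatory T cells. A T cell was called CD8 with a UMI of Cd8a or Cd8b1 and none of Cd4, regulatory with a UMI of Foxp3 and none of Cd8a or Cd8b1, and CD4 with a UMI of Cd4 alone. In B cells, which were shallower than T cells, the CD8 genes were detected in 2.56% and 2.70%, Cd4 in 0.366% and 0% and Foxp3 in 0.366% and 0%. Other C1q macrophages were nearer to members in depth (medians of 11064 and 11582.5 UMIs). In these the CD8 genes were detected in 5.34% and 4.93%, Cd4 in 13.3% and 9.49% and Foxp3 in 0.890% and 1.09%. Among CD8 T cells, 60 of 798 (7.52%, 5.79 to 9.57) were cycling in Pgd fl/fl and 78 of 536 (14.6%, 11.7 to 17.8) in LysMCre. Among CD4 T cells, 11 of 259 (4.25%, 2.14 to 7.47) and 14 of 125 (11.2%, 6.26 to 18.1) were cycling, with intervals that overlapped. Regulatory T cells had the opposite order, with 37 of 295 (12.5%, 8.99 to 16.9) and 24 of 261 (9.20%, 5.98 to 13.4), also with overlapping intervals. The rest were higher in LysMCre with overlapping intervals. They were cells with both CD4 and CD8 UMIs (15.3% and 23.7%), gamma delta T cells (7.41% and 15.8%) and unassigned cells (2.87% and 5.76%). At 3000 UMIs a cell, with lineages called at full depth, CD8 T cells gave 3.82% (2.57 to 5.43) and 8.06% (5.84 to 10.8), CD4 T cells 1.44% (0.297 to 4.14) and 5.94% (2.21 to 12.5), and regulatory T cells 7.96% (4.79 to 12.3) and 4.98% (2.41 to 8.96). The order of the libraries was thus kept in CD8, CD4 and regulatory T cells, and also in unassigned cells (1.81% and 4.93%). It was not kept in cells with both CD4 and CD8 UMIs (12.7% and 10.5%) or in gamma delta T cells (4.17% and 0%). Whether lineages differ in the effect of genotype was not tested.

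**Figure D2:**
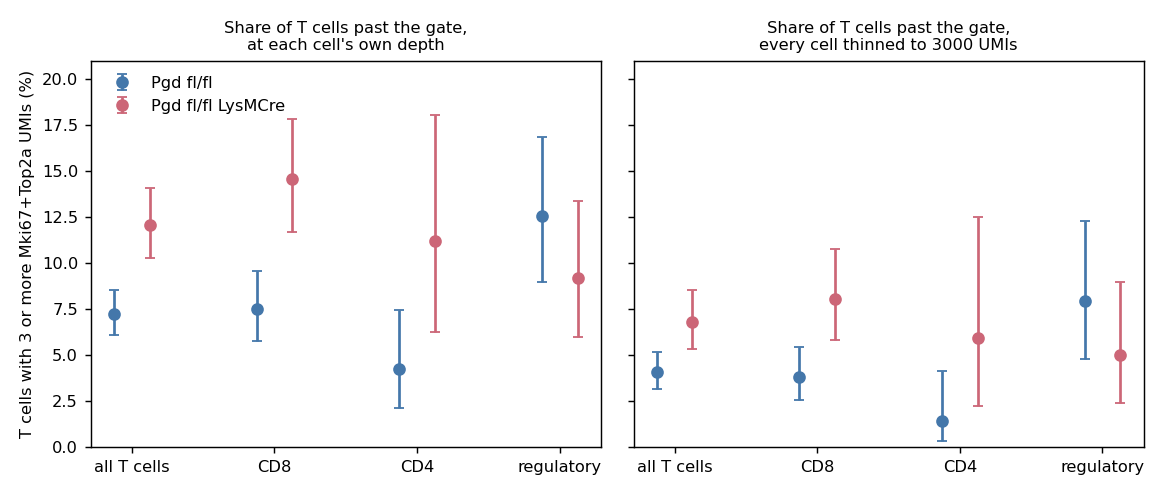
Percent of T cells past the Mki67 and Top2a limit (y axis) for all, CD8, CD4 and regulatory T cells in each library, at the cells' own depth and thinned to 3000 UMIs, with 95% Clopper-Pearson intervals as bars. CD8 T cells go from 7.52% in Pgd fl/fl to 14.6% in LysMCre, while regulatory T cells go from 12.5% to 9.20%.

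The makeup of the cycling T cells differed in the same direction, with intervals that overlapped between the libraries. CD8 cells made up 46.5% (37.7 to 55.5) of cycling T cells in Pgd fl/fl and 54.2% (45.7 to 62.5) in LysMCre, against 44.5% and 43.7% of other T cells. Regulatory cells made up 28.7% (21.1 to 37.3) and 16.7% (11 to 23.8) of cycling T cells, against 15.6% and 22.6% of other T cells. In Pgd fl/fl the interval lay above the regulatory share of other T cells, whereas in LysMCre it took that share in. A single Foxp3 UMI called a regulatory cell and members were deeper, and cells with no lineage gene were 7.75% and 7.64% of cycling but 20.4% and 17.2% of other T cells. Foxp3 was detected in 48 and 40 members, and 37 and 24 of them were called regulatory. The part of detection and of the lineage rule in these shares was not tested. Another 8.53% and 9.72% were CD4 cells, 9 and 14 members held UMIs of both CD4 and CD8 genes, 2 and 3 were called gamma delta T cells, and 10 and 11 had no UMI of these lineage genes.

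The balance of early and late cycle genes was alike in both libraries. Genes of the G1/S list made up a median of 37.1 per 10000 UMIs of a member (1.33 to 111) in Pgd fl/fl and 37.4 (0 to 98.6) in LysMCre. Genes of the G2/M list, without the rule genes, made up 70.1 (4.19 to 273) and 77.0 (3.40 to 291). G2/M UMIs outnumbered G1/S UMIs in 92 of 129 members (71.3%, 62.7 to 78.9) and in 106 of 144 (73.6%, 65.6 to 80.6), and the intervals overlapped. The same held for 76.6% and 77.3% of other T cells, so this share does not place a member late in the cycle. It was 70.0% and 70.5% in CD8 members and 73.0% and 79.2% in regulatory members.

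**Figure D3:**
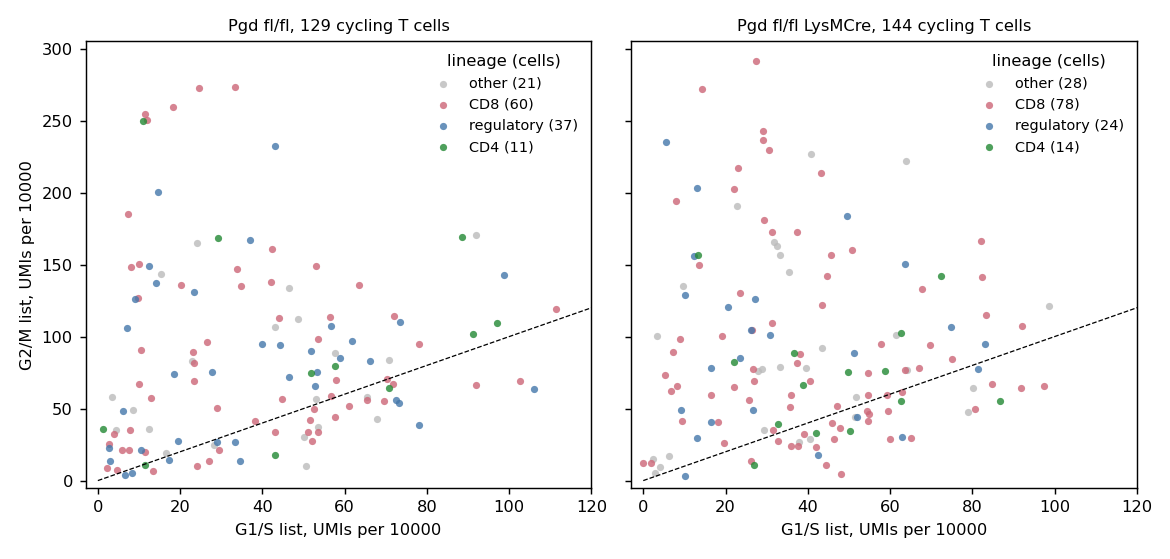
G1/S UMIs per 10000 (x axis) against G2/M UMIs per 10000 (y axis) for each cycling T cell, coloured by lineage, 1 panel a library, with a dashed line where both are equal. The line is no neutral point, since 92 and 106 members lie above it (71.3% and 73.6%) and so do 76.6% and 77.3% of other T cells.

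Genes of DNA copying were higher in cycling than in other T cells in both libraries. UMIs were summed over members and given as CPM (scaled to a total of 1000000 UMIs in each group of cells), and log2 ratios compare the sums. Of the 9133 genes compared, 6.14% were at least 2-fold higher in cycling T cells in both libraries and 0.372% at least 2-fold lower, against 34 of the 35 G1/S genes higher. As the cells were split on late cycle genes, these ratios describe the split and were not tested. The median log2 ratio of the G1/S list was 2.54 in Pgd fl/fl and 2.29 in LysMCre.

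Among them, Pclaf stood at 547 and 527 CPM against 8.65 and 15 CPM in other T cells, with log2 ratios of 5.98 (5.65 to 6.33) and 5.13 (4.84 to 5.44). Dut, which keeps uracil out of DNA, stood at 437 and 400 CPM against 75.3 and 81.8. Pcna, the sliding clamp of DNA polymerase, had log2 ratios of 1.81 and 1.69, and Slbp, which binds histone mRNA, 1.21 and 1.14. Pcna and Slbp were thus nearer to other T cells than Pclaf was, and other T cells held them at 90.4 and 98.9 CPM and at 89.5 and 86.9 CPM.

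Mitotic genes stood further above other T cells than the S phase genes, an order that the split on late cycle genes favors. The G2/M list had a median log2 ratio of 4.95 and 4.37, and 40 of its 40 genes passed 2-fold in both libraries. Birc5 (survivin, part of the chromosomal passenger complex) stood at 349 and 325 CPM against 5.34 and 7.43 CPM in other T cells. Hmgb2, a chromatin protein that is high in dividing cells, had the most UMIs of the list at 3818 and 3817 CPM, with log2 ratios of 2.10 and 2.02, and Tubb4b, a tubulin, 2.14 and 1.99. Smc4, a condensin subunit, was lowest of these with 1.15 and 1.59.

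By size, the genes highest over other T cells in both libraries were Ccna2, Hist1h2af, Kif18b, Hmmr, Hist1h3b, Esco2, Pbk, Bub1, Nek2, Pimreg, Ska1 and Mxd3. Ccna2, the cyclin of S phase and G2, stood at 115 and 126 CPM in members and at 1.07 and 0.858 CPM in other T cells, where it had 10 and 6 UMIs, so its log2 ratios of 6.75 (5.84 to 7.83) and 7.20 (6.06 to 8.66) are loose. Bub1, a spindle checkpoint kinase, had 4 and 2 UMIs in other T cells and log2 ratios of 6.17 (4.72 to 8.09) and 7.18 (5.29 to 10.25). The rest are genes of spindle, kinetochore, sister chromatid cohesion and histones, apart from the kinase Pbk, the poorly described Pimreg and Mxd3, a partner of Max.

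The same programs were seen in cycling C1q macrophages, which were split at the same limit. Their G1/S median log2 ratio was 2.45 in Pgd fl/fl and 2.87 in LysMCre, and their G2/M median 4.19 and 3.91. Both cell types were split on Mki67 and Top2a, so higher cycle lists in each follow in part from the split. No difference between the cell types was tested.

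The promoters of the lists were searched for the elements named above, in RefSeq promoters of GRCm38.p6 that run from 250 bases before to 50 bases after a start. An E2F element (TTTCCCGC or TTTGGCGC, either strand) was found in 9 of 28 promoters of the G1/S list (32.1%, 25 of 35 genes matched), in 0 of 36 of the G2/M list (34 of 40 genes matched) and in 1.56% of all 32851 promoters. The CHR element (TTTGAA, either strand) was found in 26 of 36 promoters of the G2/M list (72.2%), in 3 of 28 of the G1/S list (10.7%) and in 17.9% of all. CCAAT was found in 60.7% of the promoters of the G1/S list, in 77.8% of those of the G2/M list and in 37.4% of all. The elements were counted separately, and a match is a description of the sequence, not a bound site or a cause.

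The following windows hold the 100 bases before the start, 5′ to 3′ on the strand of the gene, with the matched letters in capitals. They are shown because they carry the early and the late element in genes whose levels separate cycling from other T cells. Hells (GRCm38.p6 chr19:38930890-38930989, plus strand), a chromatin remodeler of S phase, and Mcm6 (chr1:128359706-128359805, minus strand), a subunit of the replicative helicase, are G1/S genes with an E2F element in this window. Kif11 (chr19:37376282-37376381, plus strand), a spindle motor, Cdk1 (chr10:69352913-69353012, minus strand), the mitotic kinase, and Ube2c (chr2:164769829-164769928, plus strand), which marks mitotic cyclins for degradation, are G2/M genes far above other T cells with a CHR element in it. In Kif11 and Ube2c the element lies on the opposite strand and reads TTCAAA.
Hells: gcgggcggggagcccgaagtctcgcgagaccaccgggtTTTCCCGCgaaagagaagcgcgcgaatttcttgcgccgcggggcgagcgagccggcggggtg
Mcm6: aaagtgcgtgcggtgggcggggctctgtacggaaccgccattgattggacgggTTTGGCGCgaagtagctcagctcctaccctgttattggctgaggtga
Kif11: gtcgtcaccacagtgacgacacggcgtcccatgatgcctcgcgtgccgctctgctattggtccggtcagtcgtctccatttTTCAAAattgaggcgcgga
Cdk1: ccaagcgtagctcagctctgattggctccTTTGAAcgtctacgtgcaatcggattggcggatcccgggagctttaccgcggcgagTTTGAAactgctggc
Ube2c: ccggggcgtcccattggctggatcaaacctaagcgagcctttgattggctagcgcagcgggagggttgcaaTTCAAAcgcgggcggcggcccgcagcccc

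The early pair stood lower over other T cells than the late trio, again under a split on late cycle genes. Hells stood at 96.1 and 130 CPM against 20.8 and 26.4 in other T cells, with log2 ratios of 2.21 and 2.29, and Mcm6 at 179 and 188 CPM against 48.3 and 53, with 1.89 and 1.83. Kif11 stood at 140 and 138 CPM against 1.92 and 4.14, with 6.18 and 5.05. Cdk1 stood at 140 and 131 CPM against 3.84 and 4.0, with 5.19 and 5.04, and Ube2c at 297 and 289 CPM against 6.19 and 11.4, with 5.58 and 4.66.

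Regulators of the cycle differed in both directions. Of the 25 cyclins, kinases, E2F factors and inhibitors with at least 20 UMIs, 12 were at least 2-fold higher in cycling T cells in both libraries (list medians 1.45 and 1.17). Gmnn (geminin), which blocks a second round of replication, had log2 ratios of 2.30 and 2.22. Cyclin D2 (Ccnd2), which acts in G1, was lower, at 197 and 199 CPM against 323 and 321, with log2 ratios of -0.71 (-0.88 to -0.55) and -0.69 (-0.84 to -0.54). The inhibitor p27 (Cdkn1b), named after its values were seen, was also lower with -0.78 and -0.87. Cdkn1a (p21), an inhibitor induced by p53, was higher in cycling cells with 0.79 and 0.24.

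Histone and repair genes were higher together. The chromatin list had medians of 2.02 and 2.01, with 18 of 19 genes past 2-fold in both libraries, and H1f0, the linker histone of resting cells, was the exception at 0.18 and 0.08. Hist1h2ap, a copy of histone H2A, had log2 ratios of 4.54 and 4.80 and H2afz, the variant H2A.Z, of 1.68 and 1.36. DNA repair and checkpoint genes had medians of 2.52 and 2.12, with 12 of 16 past 2-fold, among them H2afx (3.15 and 3.05), which marks DNA breaks.

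Metabolic genes were higher in cycling T cells by less than 2-fold in most cases. The purine and pyrimidine synthesis list had medians of 0.88 and 0.83, with 4 of 21 genes past 2-fold in both libraries. Among its genes with the most UMIs, Impdh2, the rate-limiting step of guanine nucleotide synthesis, had log2 ratios of 1.22 and 1.21, Nme1 0.81 and 0.43, and Cmpk1 0.42 and 0.41. The TCA cycle and respiratory chain list had medians of 0.58 and 0.40, and 20 of its 20 genes lay above 0 in both libraries, from Cox4i1 at 0.08 and 0.03 to Ndufa4 at 0.80 and 0.50 among the genes with the most UMIs. The Myc and ribosome biogenesis list had 0.56 and 0.35, with 16 of 20 above 0 in each, including nucleolin (Ncl, 0.72 and 0.65). The median of all genes was 0.14 in Pgd fl/fl and 0.01 in LysMCre, and these medians exceed it.

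Glycolysis genes were mostly higher in cycling than in other T cells. Of 17 glycolysis genes 12 lay above 0 in each library (medians 0.30 and 0.30), with medians of 0.29 and 0.41 in CD8 cells and of -0.20 and 0.03 in regulatory cells. The medians in cycling over other macrophages were -0.20 and -0.20, and no difference between cell types was tested. Gapdh had log2 ratios of 0.56 and 0.43 and Ldha, which makes lactate, of 0.77 and 0.62, while Aldoa had -0.26 and -0.08. Per cell, glycolysis UMIs made up a median of 38.6 per 10000 in cycling T cells of Pgd fl/fl and 48.3 in LysMCre, against 24.9 and 35.3 in other T cells. The oxidative pentose phosphate genes, 3 with enough UMIs, had medians of 0.15 and 0.23 in T cells, and the nonoxidative ones 0.37 and 0.35, with 6 of 6 above 0 in each. Transketolase (Tkt) was highest among the latter with the most UMIs at 0.99 and 0.76.

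Genes of resting and effector T cells were lower in cycling T cells. The naive and memory list had medians of -0.66 and -0.51, with 11 of 13 genes lower in each library. Il7r, the receptor for the survival cytokine IL-7, stood at 266 and 271 CPM against 549 and 548 in other T cells. The cytotoxic list had -0.26 and -0.25, with 17 and 14 of 19 lower, led by the chemokine Ccl5 (852 and 800 CPM against 2201 and 2362). Interferon response genes had -0.30 and -0.39, with 20 and 23 of 24 lower, and immediate early and heat shock genes -0.37 and -0.49, with 13 and 19 of 20 lower. The remaining lists had medians between -0.50 and 0.02: checkpoint and exhaustion (-0.16 and -0.33), regulatory (-0.02 and -0.50), activation and costimulation (-0.26 and -0.41), trafficking and residency (-0.13 and -0.40), cytokines (-0.25 and -0.50), T cell receptor signalling (-0.26 and -0.24), MHC class I presentation (0.02 and -0.13), and apoptosis and p53 (-0.02 and -0.12). By size, the lowest in both libraries were Ifit1, Cxcl9, Wfdc18, Ccl5, Ifit3, Csf1, Slfn5 and Fscn1. Some of these rest on few members: Wfdc18 was in 2 and 6 and Fscn1 in 3 and 8. For Cxcl9, 5 members held 87.0% and 85.7% of the UMIs, whereas Ccl5 was in 79 and 82 members. Ifit1, an antiviral protein, stood at 15.9 and 21.9 CPM against 70.7 and 62.6.

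**Figure D4:**
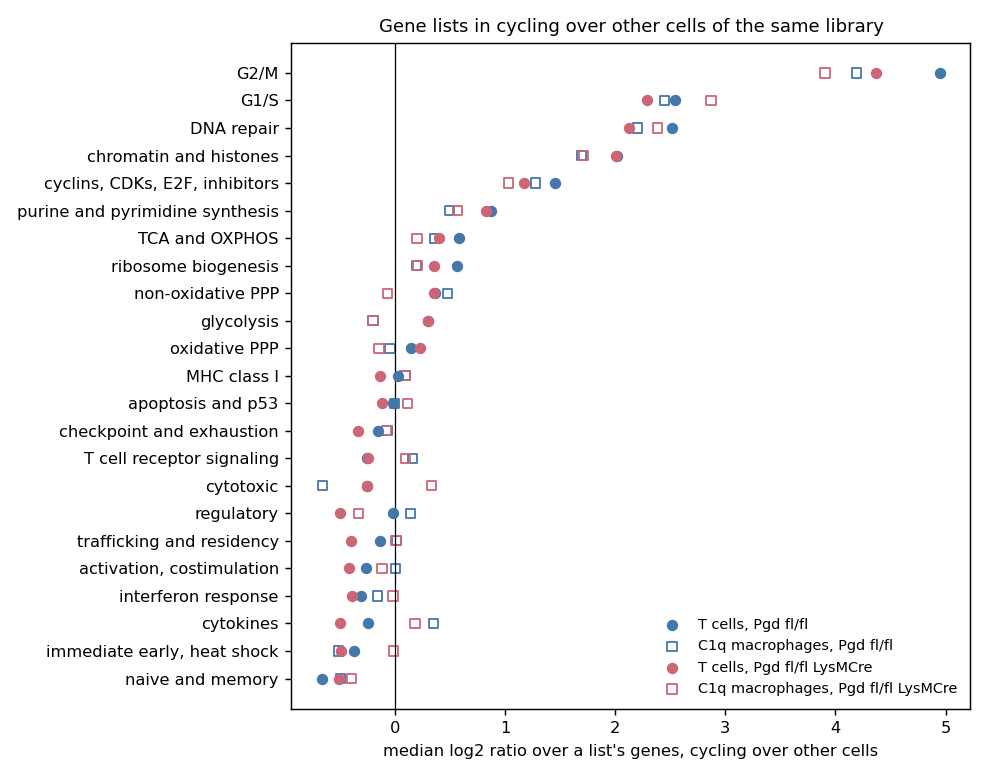
Median log2 ratio of cycling over other cells (x axis) for each of the 23 gene lists (rows), for T cells (filled) and C1q macrophages (open squares) in both libraries. The cycle, repair and histone lists lie above 1 in both cell types, and glycolysis lies at 0.30 in T cells and at -0.20 in macrophages.

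Between genotypes, the cycling T cells had alike levels of the cycle genes, and effector and memory genes differed more. Of the 9146 genes with at least 20 UMIs over both libraries, 2.59% were at least 2-fold higher in LysMCre and 1.83% at least 2-fold lower, and the median log2 ratio was 0.01. The G1/S list had a median of 0.03 (21 of 35 higher) and the G2/M list of -0.01 (19 of 40 higher), with 0 genes of either list past 2-fold. Pclaf stood at 547 and 527 CPM (log2 ratio -0.05, interval -0.18 to 0.07), Pcna at 317 and 318 CPM and Hmgb2 at 3818 and 3817 CPM. The difference in cycling share was thus not accompanied by a difference in the CPM of these genes summed over members. Members of both libraries passed the same limit on Mki67 and Top2a, so alike levels of cycle genes are partly built in. Per member, Mki67 and Top2a UMIs had medians of 10 and 12.5, at median depths of 11414 and 13166 UMIs. Cyclins, kinases and inhibitors had a median of -0.03, histones 0.07, and repair genes 0.03.

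Cytotoxic genes were higher in cycling T cells of LysMCre. Of 19 genes, 18 were higher, 16 had an interval above 0, and 4 passed 2-fold. Of all 9146 genes 6.63% had an interval above 0 and 2.59% passed 2-fold upwards, and of the 1066 with at least 500 UMIs, whose intervals are narrower, 15.8% had an interval above 0. The list had a median of 0.56 against 0.35 in other T cells. Gzmb, the granzyme that starts target cell death, stood at 556 CPM in Pgd fl/fl and 817 in LysMCre (log2 ratio 0.56, 0.44 to 0.67), and was detected in 65.9% and 75% of members, 46.6% and 60.5% of other T cells and 2.56% and 5.41% of B cells. Srgn, the proteoglycan of cytotoxic granules, stood at 1202 and 1358 CPM (0.18), while Ccl5 was the exception at 852 and 800 CPM (-0.09). The list made up a median of 48.8 per 10000 of a cycling T cell (2.33 to 398) in Pgd fl/fl and 56.0 (2.60 to 1246) in LysMCre. The distributions overlapped almost wholly, and the highest members differed most.

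The genes past 2-fold sat in few cells. Xcl1, a chemokine that draws cross-presenting dendritic cells, stood at 382 and 1094 CPM (1.52, 1.39 to 1.65), with 51.9% and 55.9% of its UMIs in 5 members. When no cell could give more than 10 UMIs of a gene, its log2 ratio was 0.53. Ccl3, an inflammatory chemokine, stood at 76.6 and 168 CPM (1.13, 0.84 to 1.43), with 49.2% and 45.1% in 5 members. Gzma, a granzyme, stood at 48.9 and 256 CPM (2.39), with 94% and 90.9% in 5 members. Gzmf had 1 UMI in Pgd fl/fl and 43 in LysMCre (5.06, 2.5 to 10.39), with 100% in 5 members. Intervals from UMI counts are too narrow for such genes, since UMIs of 1 cell are not independent. Gzma also changed most with the member limit, from 2.39 to 0.30 when T cells with 2 UMIs of Mki67 and Top2a were included.

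Genes of naive and memory T cells were lower in cycling T cells of LysMCre. Of 13 genes, 11 were lower and 8 had an interval below 0, with a list median of -0.43 against -0.65 in other T cells. Of all genes 5.57% had an interval below 0, and of those with at least 500 UMIs 16%. Tcf7, the factor of stem-like T cells, stood at 98.4 CPM in Pgd fl/fl and 48.8 in LysMCre (-1.01, -1.38 to -0.65) and in 56 and 52 members. Lef1, a factor of the same family, stood at 39.5 and 18.3 CPM (-1.11, -1.72 to -0.53), Slamf6, a receptor of precursor cells, at 53.1 and 26 (-1.03), and Dapl1 at 69.6 and 28.3 (-1.30) with 74.6% and 75.8% in 5 members. Klf2, which keeps T cells circulating, stood at 1043 and 832 CPM (-0.33), Satb1 at 183 and 135 (-0.43) and Il7r at 266 and 271 (0.03), while Ccr7, the lymph node homing receptor, was higher at 280 and 340 CPM (0.28). The per-cell median of the list was 22.1 per 10000 in Pgd fl/fl and 18.5 in LysMCre. With every T cell thinned to 3000 UMIs, which also changes the members, Tcf7 had a log2 ratio of 0.018 and the list a median of -0.11.

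Glycolysis genes were higher in LysMCre by a small amount. Of 17 genes, 15 were higher, 10 had an interval above 0 (6.63% of all genes and 15.8% of those with at least 500 UMIs) and 0 passed 2-fold, with a median of 0.32 against 0.38 in other T cells. Gapdh stood at 1459 and 1719 CPM (0.24, 0.16 to 0.31), Ldha at 697 and 816 (0.23), Pkm, which makes pyruvate, at 533 and 595 (0.16), and Aldoa at 449 and 617 (0.46). Whether the difference itself differs between cycling and other T cells was not tested. Genes of the oxidative pentose phosphate pathway, the pathway of the deleted gene, had intervals that took in 0, and those of Pgd and G6pdx also took in the glycolysis median. Pgd stood at 29.5 and 34.7 CPM (0.23, -0.30 to 0.78), G6pdx, the first enzyme, at 13.0 and 14.6 (0.17, -0.66 to 1.02), and Pgls, the second, at 159 and 147 (-0.12, -0.36 to 0.12). Their list median was 0.17, and that of the nonoxidative genes 0.05, with 0 past 2-fold in either.

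**Figure D5:**
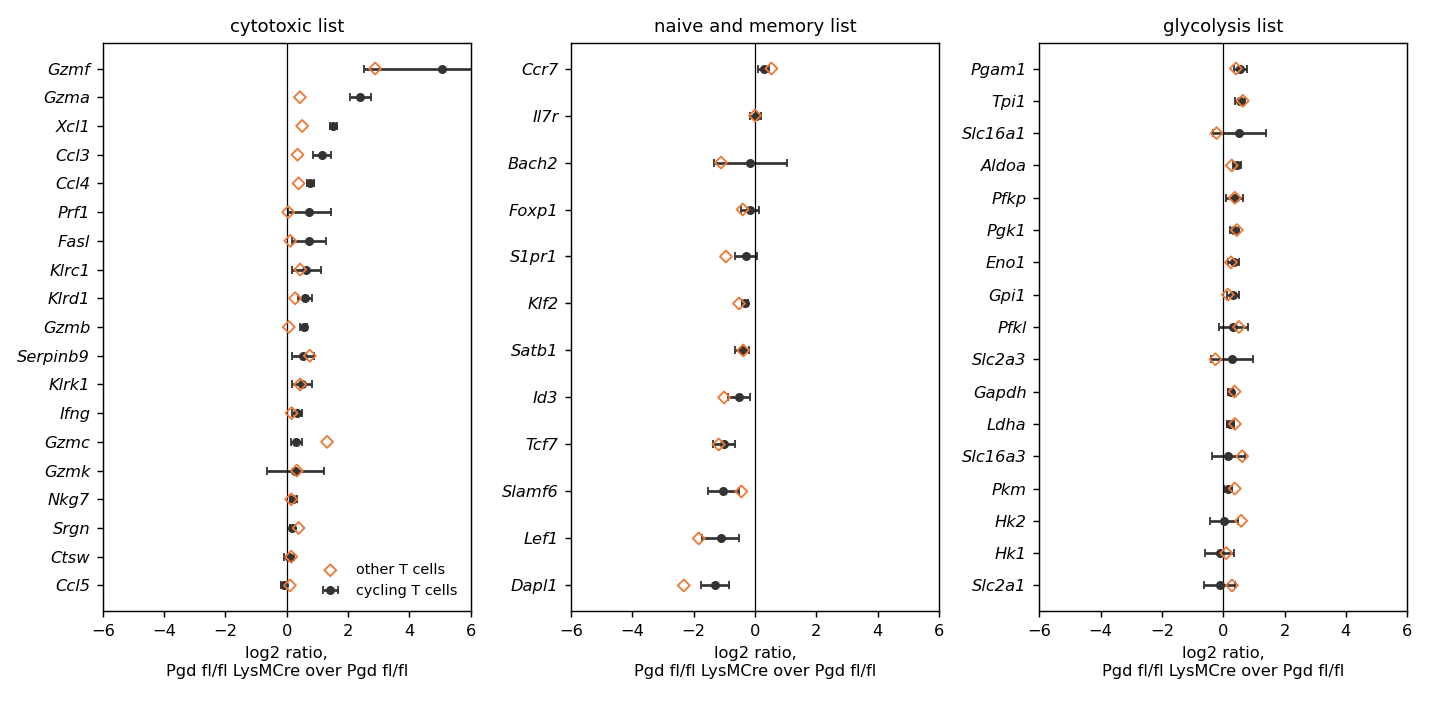
Log2 ratio of LysMCre over Pgd fl/fl (x axis) for cytotoxic, naive and memory, and glycolysis genes (rows, 1 naive and memory gene not shown) in cycling T cells (points with 95% counting intervals) and other T cells (diamonds). The cytotoxic genes lie to the right of 0 apart from Ccl5, the naive and memory genes mostly to the left, and 15 of 17 glycolysis genes to the right.

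The remaining T cell lists had medians near that of all genes. Checkpoint and exhaustion genes had a median of 0.06 with 13 of 19 higher: Pdcd1 (PD-1) stood at 89.6 and 133 CPM (0.57, 0.28 to 0.86), while Ctla4 at 288 and 298 (0.05), Bhlhe40 (0.09) and Nr4a1 (-0.00) lay near 0. Regulatory genes had 0.00, with Itgb8, an activator of TGF-beta, at 33.6 and 16.4 CPM (-1.03, -1.68 to -0.41), Areg at 525 and 399 (-0.40) and Tnfrsf4 (OX40) at 506 and 507. Activation and costimulation genes had -0.03, trafficking and residency 0.06, T cell receptor signalling -0.08, and MHC class I presentation 0.02. The purine and pyrimidine list had -0.18, with Nme1 at 438 and 327 CPM (-0.42, -0.57 to -0.27), the TCA cycle and respiratory chain list -0.06, the Myc and ribosome biogenesis list -0.11, and interferon response genes -0.11. Apoptosis and p53 genes had 0.04, with Cdkn1a at 98.4 and 162 CPM (0.72, 0.45 to 0.99) and Bcl2l11, which promotes death, at 117 and 175 (0.58).

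Cytokine genes were few and uneven. Their median was 0.11 over 12 genes. Interferon gamma (Ifng) stood at 266 and 334 CPM (0.33, 0.15 to 0.50) and Tgfb1 at 181 and 212 (0.23). Csf1 had 15 and 51 UMIs (1.40, 0.54 to 2.33), Lta 12 and 35 (1.17, 0.19 to 2.26), Il2 21 and 11 (-1.30, -2.50 to -0.18) and Il17f 16 and 4 (-2.37, -4.41 to -0.74). Each of these rests on few cells: 5 members held 53.3% and 54.9% of the Csf1 UMIs, 85.7% and 72.7% of those of Il2, and 100% of those of Il17f in both libraries. Immediate early and heat shock genes had a median of -0.13 with 15 of 20 lower, including Hsp90aa1 at 2706 and 2160 CPM (-0.32), and Egr3 higher with 12 and 32 UMIs (1.05, 0.05 to 2.14).

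The makeup of the members moved with these values, so the genes were also read within lineages, where genes were named after their values were seen. In CD8 members (60 and 78 cells) the cytotoxic median was 0.55, glycolysis 0.45, naive and memory -0.43 and checkpoint 0.44, against 0.03 for all genes. Tnfrsf9 (4-1BB), a costimulatory receptor induced by antigen, stood at 87.7 and 323 CPM (1.88, 1.51 to 2.26) and in 14 and 45 CD8 members. Rgs16 had 17 and 162 UMIs (2.70) in 8 and 26 members, Havcr2 (TIM-3) 20 and 75 (1.35), Lag3 5 and 30 (2.03) and Prf1 (perforin) 13 and 53 (1.47). Tcf7 had 122 and 74 UMIs (-1.28) in 39 and 37 members and Lef1 40 and 19 (-1.63). In other CD8 T cells Tnfrsf9 differed by 1.44 and Tcf7 by -0.92, so these differences were not confined to cycling cells.

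Cytotoxic UMIs of CD8 members made up a median of 65.7 per 10000 (2.72 to 398) in Pgd fl/fl and 76.8 (25.9 to 1246) in LysMCre, below the medians of other CD8 T cells (82.0 and 97.7). The Xcl1 sum over CD8 members was 308 and 2089 UMIs (2.21) and that of Gzmc 24 and 665 (4.24), of which 75% and 86.6% lay in 5 members.

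Regulatory members (37 and 24 cells) had another pattern. Their cytotoxic median was -0.22, naive and memory -0.61, glycolysis 0.35, interferon response 0.45 and immediate early and heat shock -0.82, against -0.00 for all genes. These rest on 13 of 19, 10 of 13, 17 of 17, 22 of 24 and 18 of 20 genes. Genes at 0 UMIs in either library have no ratio, such as Xcl1 (105 and 0 UMIs) and Tcf7 (11 and 0). The regulatory list made up a median of 87.9 per 10000 UMIs (24.1 to 254) in Pgd fl/fl and 103 (43.6 to 173) in LysMCre, below other regulatory T cells (149 and 152). Hsp90aa1, a chaperone, stood at 2282 and 797 CPM (-1.52) in 36 of 37 and 24 of 24 members, and Hspa1a, an inducible chaperone, at 895 and 32.5 CPM (-4.78, -5.92 to -3.84) in 17 and 5 members, with 83.6% and 100% of its UMIs in 5 members. In other regulatory T cells the same genes differed by -0.20 and -0.40, and 61.1% and 38.5% of the Hsp90aa1 UMIs of regulatory members lay in 5 of them. Among interferon genes, Isg15 had 43 and 85 UMIs (1.5) and Bst2 66 and 105 (1.18), and the list made up a median of 45.8 (11.5 to 170) and 67.9 (8.80 to 392) per 10000 UMIs of a regulatory member. Whether these patterns differ between CD8 and regulatory members was not tested.

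Many of the genes with the largest ratios between genotypes belong to other cell types. The 12 highest were Ccl1, Gzma, Ccl17, Wfdc18, Xcr1, Naaa, Plet1, Xcl1, Tgfbi, Pxdc1, Rab7b and Nrgn, and the 12 lowest Cxcl3, S100a9, Igfbp5, Trf, Cd79a, Sgip1, Dapl1, Uspl1, Nfib, S100a8, Sox9 and Tcf7. Marker carriers held 100% and 88.2% of the UMIs of Xcr1, a receptor of cross-presenting dendritic cells, 100% and 96.0% of those of Plet1, 100% and 96.8% of those of S100a9, a neutrophil protein, and 97.9% and 92.9% of those of the B cell receptor gene Cd79a. Xcr1, S100a9 and Cd79a are on the marker lists that defined the carriers. Without the carriers, Tgfbi had a log2 ratio of -0.19 in place of 2.11, Trf 0.025 in place of -1.58, and Naaa 0.70 in place of 2.42. In contrast, Gzma had 4.96, Ccl1 3.53, Xcl1 1.44 and Tcf7 -0.83 without them. These last values kept their direction without the carriers.

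Ccl1, a chemokine of activated T cells, sat in few cells. It had 128 UMIs in 5 members of Pgd fl/fl and 1515 in 20 members of LysMCre (3.20, 2.93 to 3.47), with 94.4% of the latter in 5 members, and in other T cells its log2 ratio was 0.81. Its log2 ratio was -0.34 among members without any myeloid or B cell marker UMI. Uspl1, which is linked to SUMO removal, was more evenly spread, with 67 UMIs in 48 members and 33 in 30 (-1.39, -2.04 to -0.77), 28.4% and 24.2% of them in 5 members, and 0.06 in other T cells.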

How the data were processed

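The authors deposited unnormalized UMI counts per gene and barcode for each library, made with Cell Ranger 6.1.2 on mm10 per the submitters' processing notes, which also name Seurat. In the counts, 12 rows of multiplexing oligos were left out of every sum. The cell filters stated in the study's methods were applied here. They kept 3565 cells of Pgd fl/fl and 2798 of LysMCre, in each case more than the paper gives as analyzed, so the cell sets are not identical. Members and the 23 gene lists (442 genes) were chosen with earlier results of these data known. Lineages came from Cd4, Cd8a, Cd8b1, Foxp3 and receptor gamma and delta UMIs. For each group of cells the UMIs of a gene were added up and divided by the total of all genes, and a gene needed 20 UMIs over both libraries. Shares have exact Clopper-Pearson intervals, log2 ratios exact conditional ones, both at 95% and for counting error only, and a call means past 2-fold. Genes named were the 12 highest and 12 lowest between genotypes by the interval bound nearest to 0 (at least 50 UMIs and 2-fold), the 12 highest and 8 lowest of cycling over other T cells by the smaller library value, list genes past 2-fold with an interval that leaves out 0, and those of each list with the most UMIs. Others were named after their values were seen. As 1 library a genotype allows no test of counts, edgeR 4.0.16 (TMM) and DESeq2 1.42.0 gave scale factors only, in R 4.3.3. Python 3.11.15, numpy 2.4.6, scipy 1.17.1, pandas 2.3.3 and matplotlib 3.10.9 did the rest, after tests on simulated data. Alternatives were other limits, thinning, other scales and leaving out kinds of cells. No doublet caller was run. Promoters came from RefSeq (GRCm38.p6). Mx1 was not analysed here, and a few list genes that enter the counts and medians are not reported here by name. H2afz, H2afx and histone symbols are as in the files, and near-identical histone copies can share reads.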

Additional observations from a re-analysis of the deposited data

How the results depend on the processing

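No paired analysis was possible because each genotype has 1 library, and no library could be left out. Of the headline values under all alternatives, 133 stayed within the set range and 22 moved, and of the other values 1009 stayed, 193 moved and 20 turned direction. The cycling share of T cells (7.22% and 12.1%) was 10.0% and 16.2% at a limit of 2 UMIs, 4.64% and 9.49% at 6, and 4.06% and 6.81% thinned to 3000 UMIs. In Pgd fl/fl it was 5.72% among T cells without myeloid or B cell UMIs and 8.73% without cells over 20% of the other tag. The share with more G2/M than G1/S UMIs was 79.5% in Pgd fl/fl at a limit of 6, and 81.0% and 82.9% thinned. Genes at least 2-fold higher between genotypes (237) numbered 90 thinned, 478 with lineages weighted equally, 730 with no gene minimum and 88 at 50 UMIs, and those lower (167) 72, 507, 903 and 35. Genes 2-fold higher in cycling over other T cells in both libraries (561) numbered 280 thinned, and those lower (34) 19 at a limit of 2 and 7 thinned. Single log2 ratios turned direction as follows. Without cells holding any myeloid or B cell UMI, Ccl1 was -0.34, S100a8 2.05, Il2 1.32, Lta -0.27 and Fscn1 (cycling over other, Pgd fl/fl) 0.089. Thinned, Rab7b was -0.15, Cd79a 0.85, Tcf7 0.018, Egr3 -0.15 and Il2 0.85, and at a limit of 6 Il2 was 0.087. Without members over 30000 UMIs, Trf was 0.83, Nfib 0.32 and Sox9 1.18. The alternatives that follow were chosen after seeing the data. Without cells over 20% of the other tag S100a9 was 4.41 and S100a8 2.98, with at most 10 UMIs of a gene per cell 0.76 and 0.35, and without carriers of another type's markers Tgfbi was -0.19 and Trf 0.025. Leaving out cells with both CD4 and CD8 UMIs, also added, moved no headline value out of range. The cause of these changes was not tested. TMM and DESeq2 scales shifted every log2 ratio by -0.01.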
